A study of Mus musculus with 11 samples.

Results

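The distal zinc finger gene cluster of mouse chromosome 4 was followed through 5 of its genes, Zfp979, Zfp982, Zfp991, Znf41-ps and Gm13238, in B cells of NOD and NR4 mice. The members were the 10 of 45037 probe sets, each a set of short array probes for 1 transcript target, to which the annotation of the Affymetrix mouse genome array gives 1 of these 5 symbols. Zfp982 had 4 of them, 1 of which (1456179_at) also names Gm13212. Zfp991 had 3, and Zfp979, Znf41-ps and Gm13238 had 1 each. The genes were chosen by their strain differences in these same arrays, so the strain differences of the members are given as descriptions, with no p. Counts of members past the threshold of the array-wide fit in the strain comparisons only describe that choice. This holds also where they return under other processing. The response to stimulation played no part in that choice and was tested.

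NOD is NOD/ShiLtJ, an inbred strain that develops autoimmune diabetes spontaneously. NR4 is NOD.NOR-Chr4/DvsJ, a congenic strain that carries a segment of chromosome 4 from the NOR strain on the NOD background, so both strains share the rest of the NOD genome as far as the backcross went. Splenic B cells came from females aged 6 weeks of either strain, in 3 lots per strain of 7 to 8 pooled spleens, and were enriched by magnetic removal of other cells. Cells were held for 2 h with 10 µg/ml of goat F(ab')2 fragments against mouse IgM, which cross-link the B cell receptor, or in medium alone. Arrays numbered 2 for anti-IgM NOD cells, 3 for unstimulated NOD cells, 3 for anti-IgM NR4 cells and 3 for unstimulated NR4 cells, 11 in all. Both cultures of a strain were drawn from the same lots. The values are RMA signals, taken as log2, that had been centred so that every probe set has a median of 0 over the 11 arrays. They give differences between arrays but no level, and whether a transcript was detected cannot be read from them.

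Zinc finger proteins of the KRAB class bind DNA through arrays of zinc fingers, while their KRAB domain recruits the corepressor TRIM28 (KAP1) and, through it, the histone methyltransferase SETDB1. This machinery silences retroelements and nearby genes, mainly in early embryos, and some of it remains active in lymphocytes. The cluster on distal chromosome 4 is a rapidly expanded mouse family of genes and pseudogenes with closely similar copies, which differ in number between mouse strains. Zfp979 carries the older name Ssm1b, a strain-specific modifier of DNA methylation first known from a mouse transgene. Zfp982 has been studied in mouse embryonic stem cells as a regulator of stem cell genes. Znf41-ps and Gm13238 are annotated by RefSeq as transcribed pseudogenes.

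The gene table of RefSeq lists 90 genes between Vps13d and Mfn2 on chromosome 4, the stretch that holds the cluster. Of these, 56 are pseudogenes, 24 are protein-coding and 10 are long noncoding RNA genes, and 17 have a symbol that starts with Zfp or Znf. Counted from the Vps13d side, Znf41-ps is gene 26, Gm13238 gene 27, Zfp991 gene 65, Zfp982 gene 75 and Zfp979 gene 80. Probe sets were listed for 19 of the 90 genes, and only 7 of the zinc finger genes were among them. Most of the family is therefore not read by name on this array.

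Promoter windows show how alike the copies are. RefSeq windows of assembly GRCm38.p6, the C57BL/6J reference and neither strain studied here, cover 250 bases before to 50 bases after a transcription start. Such windows were at hand for Zfp979 and Zfp982, 2 of the 5 members. The Zfp979 window carries 3 of the 4 motifs searched, all but TATAAA. The second Zfp982 start and the windows of Rex2 and Zfp600 are shown beside it as near copies, and the first Zfp982 start as a window of another kind. Each is given 5′ to 3′ on the gene's strand. In the Zfp979 window and the first Zfp982 window, capitals mark matches on either strand to GGGCGG or to CCAAT or to GGAAGT. In the other 3, capitals mark bases that differ from Zfp979 within the aligned stretch.
Zfp979, chr4:147642459-147642758, minus strand: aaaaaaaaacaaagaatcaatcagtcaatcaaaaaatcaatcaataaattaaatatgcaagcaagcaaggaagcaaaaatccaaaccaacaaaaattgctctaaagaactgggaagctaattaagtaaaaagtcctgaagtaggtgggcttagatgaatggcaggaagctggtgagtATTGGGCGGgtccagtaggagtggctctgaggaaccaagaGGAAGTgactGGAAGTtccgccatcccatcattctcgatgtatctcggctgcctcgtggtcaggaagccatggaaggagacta
Zfp982 start 2, chr4:147492167-147492466, plus strand: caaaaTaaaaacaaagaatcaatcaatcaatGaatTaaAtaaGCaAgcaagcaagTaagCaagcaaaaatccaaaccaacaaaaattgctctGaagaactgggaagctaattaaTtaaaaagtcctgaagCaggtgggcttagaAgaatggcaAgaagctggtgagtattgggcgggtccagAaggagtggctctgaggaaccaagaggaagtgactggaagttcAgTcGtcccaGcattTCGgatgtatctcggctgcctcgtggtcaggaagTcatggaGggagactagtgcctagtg
Rex2, chr4:147021600-147021899, plus strand: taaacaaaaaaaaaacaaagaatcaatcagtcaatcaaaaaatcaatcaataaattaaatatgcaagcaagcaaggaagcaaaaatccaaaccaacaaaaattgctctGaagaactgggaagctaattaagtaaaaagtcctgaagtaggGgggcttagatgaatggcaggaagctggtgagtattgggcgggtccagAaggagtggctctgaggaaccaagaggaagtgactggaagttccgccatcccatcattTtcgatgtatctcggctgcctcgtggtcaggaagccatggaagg
Zfp600 start 1, chr4:146156577-146156876, plus strand: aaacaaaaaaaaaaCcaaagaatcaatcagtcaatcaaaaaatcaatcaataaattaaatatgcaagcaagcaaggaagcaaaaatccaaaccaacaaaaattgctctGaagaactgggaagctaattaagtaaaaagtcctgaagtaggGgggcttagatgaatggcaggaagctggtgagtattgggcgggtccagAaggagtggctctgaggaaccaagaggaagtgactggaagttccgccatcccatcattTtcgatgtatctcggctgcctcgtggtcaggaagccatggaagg
Zfp982 start 1, chr4:147442864-147443163, plus strand: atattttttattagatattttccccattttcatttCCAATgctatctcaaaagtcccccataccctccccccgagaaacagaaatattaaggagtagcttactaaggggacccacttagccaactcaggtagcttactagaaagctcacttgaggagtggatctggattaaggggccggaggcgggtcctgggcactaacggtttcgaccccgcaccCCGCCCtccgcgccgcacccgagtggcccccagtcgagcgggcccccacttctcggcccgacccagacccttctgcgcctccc

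The Rex2 window matched that of Zfp979 at 290 of 294 aligned bases (98.6%), and the first Zfp600 window matched it at 289 of 294 (98.3%). The second Zfp982 start matched at 264 of 288 bases (91.7%), whereas the first Zfp982 start matched at 59.0%. Of the 36 windows in the interval, 11 besides Zfp979 itself were at least 80% identical to it, and the lowest of these was Zfp984 at 80.2%. The other 24 windows lay between 53.6% and 65.6%. No window fell between these ranges, so the 12 like windows, that of Zfp979 included, form a set apart.

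All 12 like windows hold CCAAT and all 12 hold GGAAGT, searched on both strands, against 37.4% and 23.8% of the 32851 windows in the table. GGGCGG was found in 10 of 12, against 35.7% of all windows, and TATAAA in 0 of 12, against 13.6%. In Zfp979 the reverse complement of CCAAT overlaps GGGCGG. Windows copied from 1 ancestor share such letters, so the 12 are not independent, and a match is a match of letters only.

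**Figure D1:**
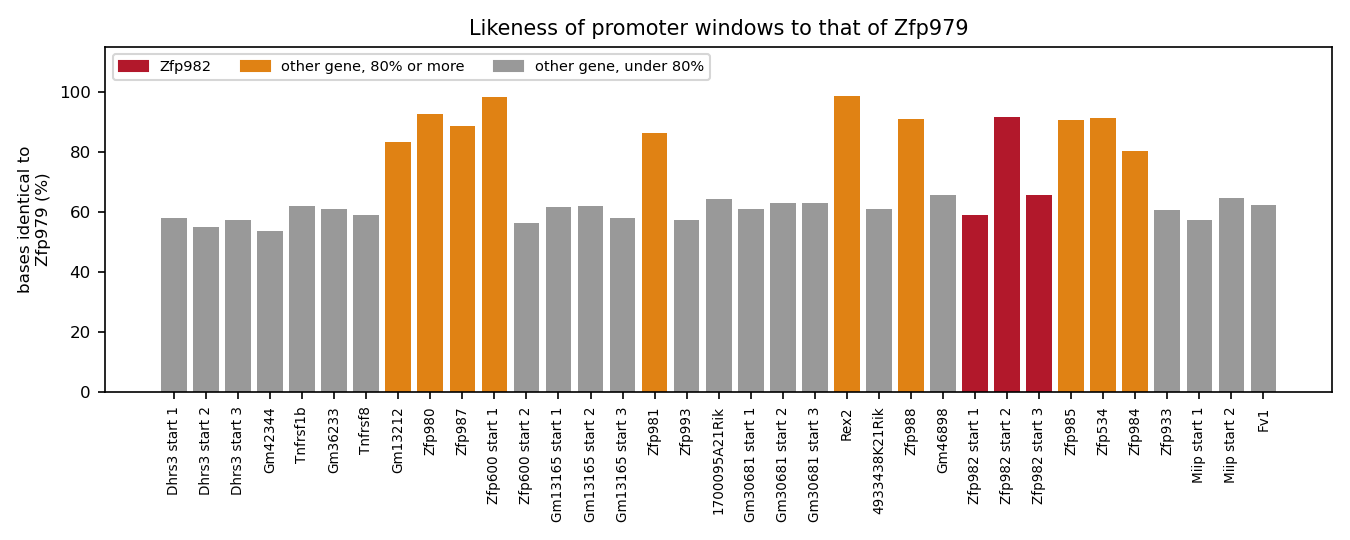
Bars give the percent of aligned bases identical to the Zfp979 promoter window for the other 35 RefSeq windows of the interval, in gene order, with 300 bases per window. The 11 windows at 80.2% or more, the second Zfp982 start among them, stand apart from the 24 between 53.6% and 65.6%.

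Zfp979 had the largest averaged difference between the strains of any probe set on the array in the values as deposited. Its centred log2 signal (1428604_at) was 4.86 and 4.78 in anti-IgM NOD cells and 4.76, 5.02 and 4.90 in unstimulated NOD cells. It was -0.18, -0.61 and 0.00 in anti-IgM NR4 cells and -0.60, -0.52 and -0.41 in unstimulated NR4 cells. All 5 NOD arrays were high and all 6 NR4 arrays low, with no overlap. The NOD minus NR4 difference was 5.08 with anti-IgM (SE 0.17) and 5.40 unstimulated (SE 0.15), which is 33.9-fold and 42.3-fold if the scale is log2. Averaged over both cultures it was 5.24 (SE 0.12), first in size among the 45037 probe sets. With quantile normalization of the deposited values the fold was 11.8 with anti-IgM, 16 unstimulated and 13.7 averaged (3.78 on the log2 scale), and the averaged difference was second in size. The cause of this change was not tested. NR4 values near 0 do not give a low level: with 6 NR4 arrays among 11, the median of a probe set whose strains are apart lies on an NR4 array.

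The 4 Zfp982 probe sets did not give 1 value for the gene. On 1436386_x_at the signal was 1.90 and 2.09 in anti-IgM NOD cells and 1.51, 1.75 and 2.24 in unstimulated NOD cells. On the same probe set NR4 cells had -0.22, -1.91 and -0.16 with anti-IgM and -0.63, 0.00 and -0.43 unstimulated. The strains did not overlap, but NR4 anti-IgM replicate 2 lay far below the other NR4 arrays. The strain difference was 2.76 (SE 0.46) with anti-IgM and 2.19 (SE 0.42) unstimulated, and the anti-IgM value was 2.19 without that replicate.

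The second Zfp982 probe set, 1459260_at, had 1.50 and 0.84 in anti-IgM NOD cells, and 0.94, 1.25 and 0.37 in unstimulated NOD cells. NR4 cells had -0.54, -0.30 and -0.76 with anti-IgM and -0.34, 0.00 and -0.66 unstimulated. Every NOD array was above every NR4 array, though the nearest pair was 0.37 apart. The averaged difference was 1.44 (SE 0.20).

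The third, 1456179_at, shared with Gm13212, had 1.12 and 0.50 in anti-IgM NOD cells and 0.71, 0.46 and 0.53 in unstimulated NOD cells. NR4 cells had 0.00, -0.45 and -0.13 with anti-IgM and -0.23, -0.32 and -0.35 unstimulated. The strains were again apart, with an averaged difference of 0.93 (SE 0.13). The fourth, 1439065_x_at, overlapped: NOD arrays ran from 0.00 to 0.72 and NR4 arrays from -0.51 to 0.09, with an averaged difference of 0.36 (SE 0.15). An ending of _x_at marks probe sets with probes that can match other transcripts, so these readings may hold signal of related copies.

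The 3 probe sets named Zfp991 went in opposite directions. On 1424784_at NOD cells had -2.42 and -1.67 with anti-IgM and -2.96, -2.23 and -1.64 unstimulated. NR4 cells had 0.33, 0.00 and 0.35 with anti-IgM and 0.19, 0.39 and 0.15 unstimulated. All NOD arrays were lower than all NR4 arrays, and the averaged difference was -2.39 (SE 0.23).

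On 1451477_at the order was turned round. NOD cells had 1.46 and 2.00 with anti-IgM and 1.52, 1.97 and 1.73 unstimulated, and NR4 cells had -0.18, -0.15 and -0.05 with anti-IgM and 0.00, -0.07 and -0.93 unstimulated. All NOD arrays were higher than all NR4 arrays, by 1.97 on average (SE 0.18). On 1440518_at NOD arrays lay between -0.08 and 0.37 and NR4 arrays between -0.20 and 0.02, which overlap, and the averaged difference was 0.18 (SE 0.10). The median of the 3 probe sets differed by 0.145 (SE 0.095) between the strains, so a single value for Zfp991 hides both shifts. No direction for the gene Zfp991 can be given from these readings.

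Both pseudogenes had the lower signals in NOD. Znf41-ps (1436574_at) had -0.98 and -1.27 in anti-IgM NOD cells and -1.03, -0.89 and -0.89 in unstimulated NOD cells. It had 0.00, 0.36 and 0.66 in anti-IgM NR4 cells and 0.57, 0.80 and 0.55 in unstimulated NR4 cells. The strains did not overlap, and the averaged difference was -1.52 (SE 0.12).

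Gm13238, the next gene in the order, had -2.34 and -2.05 in anti-IgM NOD cells and -2.28, -1.86 and -1.60 in unstimulated NOD cells on 1442183_at. NR4 cells had 0.00, 0.48 and 0.99 with anti-IgM and 0.39, 0.49 and 0.21 unstimulated. NOD arrays were all below NR4 arrays, with a difference of -2.68 (SE 0.28) with anti-IgM and -2.27 (SE 0.25) unstimulated.

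**Figure D2:**
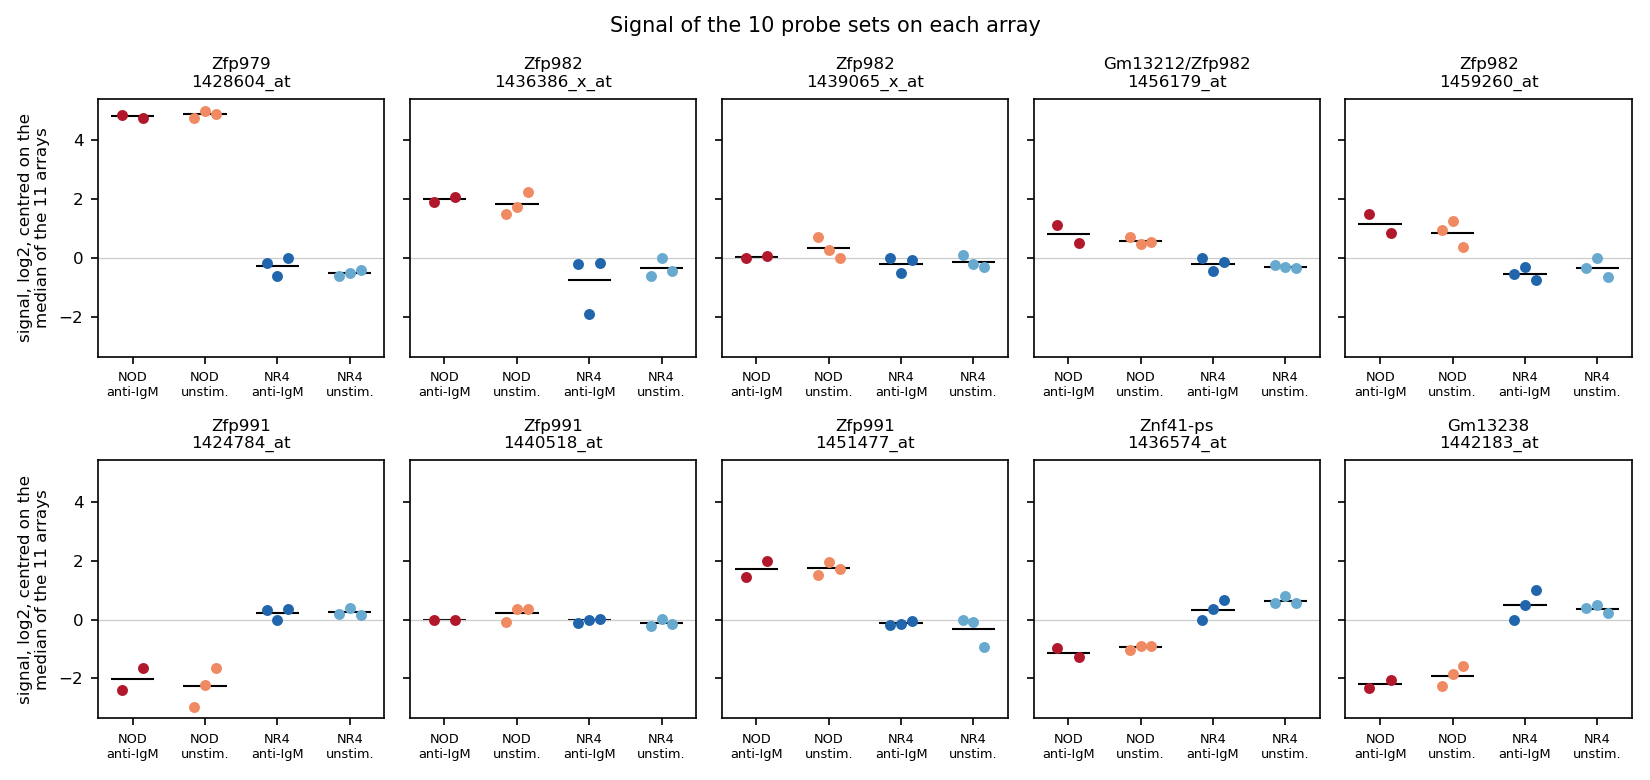
Points are the centred log2 signals of single arrays and black lines the group means, for each of the 10 probe sets in the 4 groups, on 1 common axis. Zfp979 stands highest in NOD, between 4.76 and 5.02, and the Zfp991 probe sets 1424784_at and 1451477_at show opposite orders of the strains.

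The sizes span both directions. In 5 member probe sets all NOD arrays lay above all NR4 arrays, in 3 all lay below, and in 2 the strains overlapped, against 0.624% of all probe sets with no overlap in either direction. In limma's fit over all 45037 probe sets, a call is a Benjamini-Hochberg adjusted p under 0.05. The members past it numbered 8 in the averaged strain comparison, 5 higher and 3 lower in NOD (0.118% of all probe sets, 0.0533% higher and 0.0644% lower). With anti-IgM alone there were 3 (0.0377% of all), and unstimulated 5 (0.0577% of all). The choice of the members on this contrast fixed these counts, so they are no test and nothing is read from them. The median size of the 10 averaged differences was 1.74, against 0.083 over all probe sets, a gap that the same choice brings with it.

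The strain difference had the same sign in both cultures in 9 of the 10 member probe sets under every removal of a single array. In the tenth, Zfp991 1440518_at, it was 0.03 with anti-IgM and -0.01 without NR4 anti-IgM replicate 1. The choice of the members by their strain differences in these arrays largely fixed this sameness of sign, so nothing is read from it. The interaction, the strain difference with anti-IgM minus that in unstimulated cells, ranged from -0.41 (Gm13238) to 0.57 (Zfp982 1436386_x_at). No member was called for it (0 of 10, limma adjusted p = 1 for each, lowest unadjusted p 0.169), and 0% of all probe sets were. At an unadjusted p under 0.05 there were 0 members and 716 of all 45037 probe sets (1.59%). The 95% intervals reached from -1.24 to 1.96 over the 10 members, so with 2 or 3 arrays per group the change in the strain difference was not resolved within those bounds for the least precise members.

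**Figure D3:**
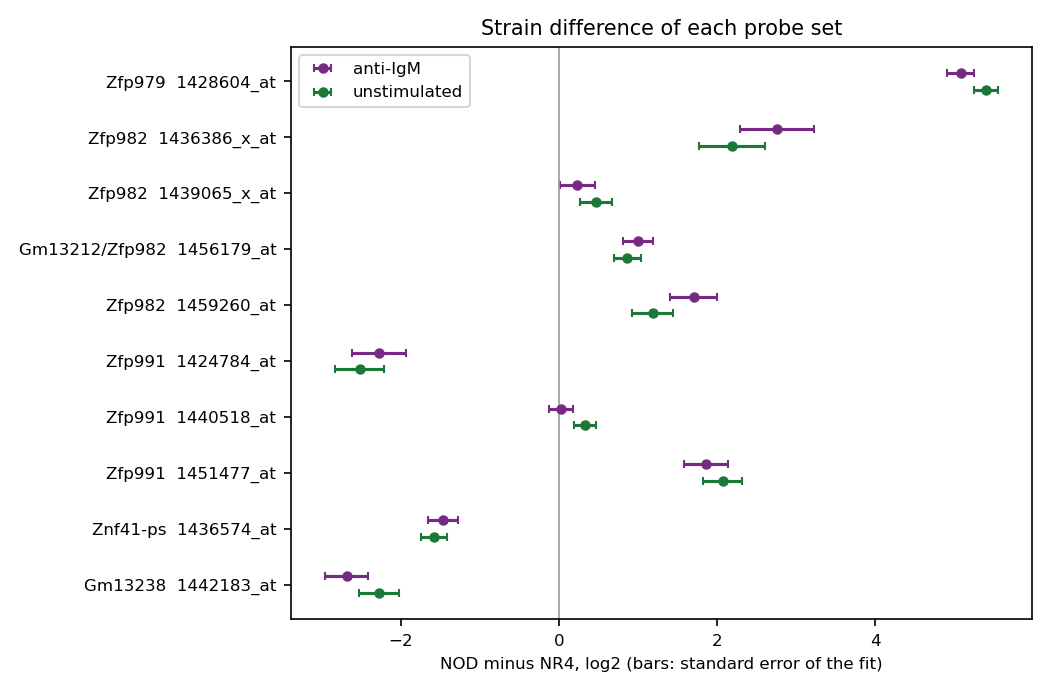
Points are NOD minus NR4 differences on the log2 scale and bars their standard errors in the fit, with anti-IgM above unstimulated for each of the 10 probe sets. Zfp979 lies at 5.08 and 5.40, and Zfp991 1440518_at lies near 0 with anti-IgM, at 0.03.

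Cross-linking of the B cell receptor for 2 h was tested next, on a contrast that played no part in choosing the genes. None of the 10 probe sets passed the test. Averaged over the strains, the anti-IgM minus unstimulated difference ran from -0.24 (Znf41-ps, SE 0.12) to 0.18 (1456179_at, SE 0.13). Znf41-ps had the lowest p of the members, 0.0796 before and 0.569 after adjustment in limma. The count was 0 of 10 called, against 1.01% of all probe sets (456), and 0 of 10 at an unadjusted p under 0.05, against 10.6% of all.

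The strains were then read apart. In NOD the responses lay between -0.29 and 0.32 and 0 of 10 were called, against 0.0444% of all probe sets (lowest unadjusted p 0.191 by limma). In NR4 they lay between -0.41 and 0.25, with 0 of 10 called against 0.167% of all (lowest adjusted p 0.664 by limma). With the replicate number as a block, the calls over all probe sets numbered 222 for the NR4 response and 797 for the averaged response, and 0 of 10 members were among them. Anti-IgM and unstimulated arrays overlapped for every member in NOD and in NR4. Over all probe sets 19.8% and 12.1% had no overlap. At such shares few of 10 probe sets would lack overlap, so nothing is read from 0 of 10.

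For Zfp979 the averaged response was 0.09, with a 95% interval from -0.17 to 0.35. Interval bounds over all members ran from -0.82 to 0.62. The widest belonged to 1436386_x_at of Zfp982, whose spread within groups (residual SD 0.594) was larger than that of 97.7% of probe sets. The residual SD of Zfp979, 0.188, was below the median of 0.215.

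**Figure D4:**
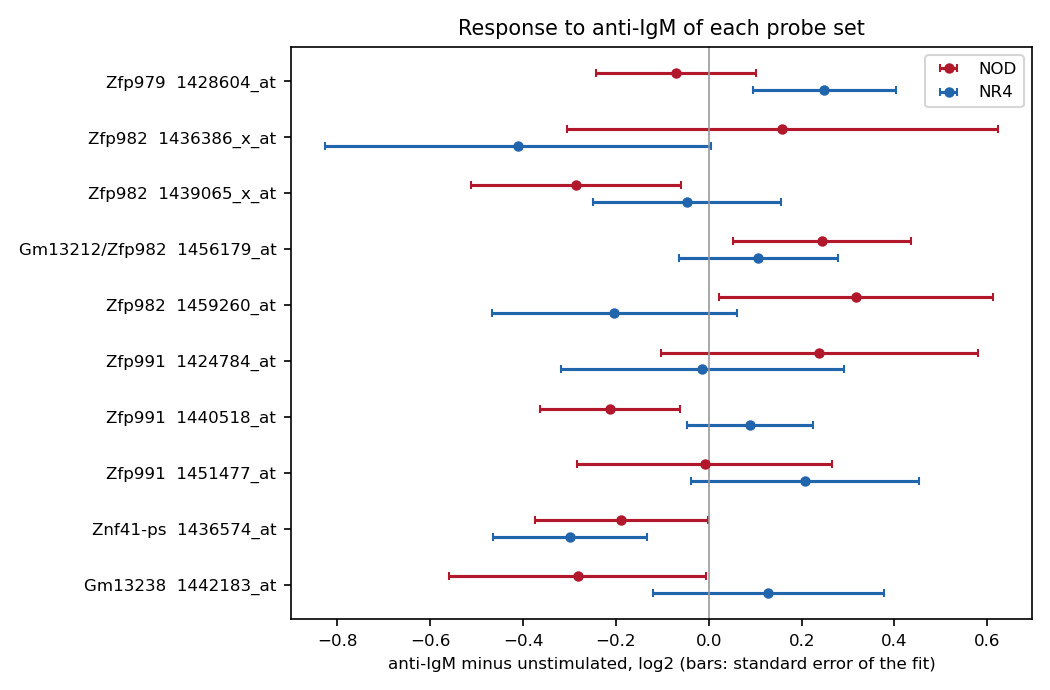
Points are anti-IgM minus unstimulated differences on the log2 scale with standard errors in the fit, NOD above NR4, for each of the 10 probe sets. All lie between -0.41 and 0.32, and 0 of 10 passed the test in either strain.

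Deviations of single arrays from their group means were compared between members, as a description over the 11 arrays, which share lots and cultures. Over the 45 pairs of member probe sets the correlation ran from -0.712 to 0.809, with a median of 0.175. The highest was between Zfp979 and Zfp982 1436386_x_at. Of the 45, 32 were above 0.

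Other genes in the interval were then read from the same fit. It takes the arrays of both cultures as independent although they share lots, so its averaged strain p-values may be too small. Of 14 other probe sets between Vps13d and Mfn2, 3 were higher in NOD and 0 lower in the averaged comparison (limma, 0.0533% of all probe sets called higher), with a median difference of 0.26, against 0.00 over all probe sets. Dhrs3, a retinaldehyde reductase at the Vps13d end, was higher in NOD by 3.33 (SE 0.30, limma adjusted p = 0.00167). A probe set shared by the ribosomal protein gene Rps19 and its pseudogene Rps19-ps3 (1460442_at) was higher in NOD by 1.93 (SE 0.11, limma adjusted p = 5.1e-05). The pseudogene lies beyond Zfp979 in the order, and the parent gene lies outside the interval, so the source of this signal is uncertain.

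The remaining call fell in the zinc finger family. Probe set 1438237_at, which names Rex2, Zfp980 and Zfp600 together, was higher in NOD by 1.63 (SE 0.20, limma adjusted p = 0.015). This call was lost in 6 of 11 removals of a single array: NOD unstimulated 1, NOD anti-IgM 1 and 2, NR4 unstimulated 1 and 2, and NR4 anti-IgM 1. The probe sets that name Rex2 or Zfp980 alone were not called, at 0.18 (SE 0.13) and 0.51 (SE 0.24). The Rex2 and Zfp600 promoter windows printed above are those of the interval nearest in sequence to Zfp979, in the C57BL/6J reference. A link between that likeness and the strain differences was not tested.

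Among genes not called, Tnfrsf1b, a receptor for tumor necrosis factor, differed by 0.72 on 1418099_at (SE 0.12, limma adjusted p = 0.0954) and by 0.13 on its other probe set. Both Miip probe sets had negative differences, -0.63 and -0.52. Fv1, which restricts murine leukemia viruses, differed by 0.33 (SE 0.11, limma adjusted p = 1). In 4 of the 14 all NOD arrays lay above all NR4 arrays, in 0 below, against 0.624% of all probe sets with no overlap in either direction. In the averaged strain comparison 8 of 14 had an unadjusted p under 0.05 by limma, or 57.1%, against 4.14% of all probe sets. By limma 0 of 14 were called for the averaged response, against 1.01% of all probe sets. There 2 of 14 had an unadjusted p under 0.05, or 14.3%, near the 10.6% of all probe sets. The largest averaged responses were 0.90 for Dhrs3 (SE 0.30, limma adjusted p = 0.266), 0.36 for Tnfrsf1b and 0.17 for 4933438K21Rik.

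**Figure D5:**
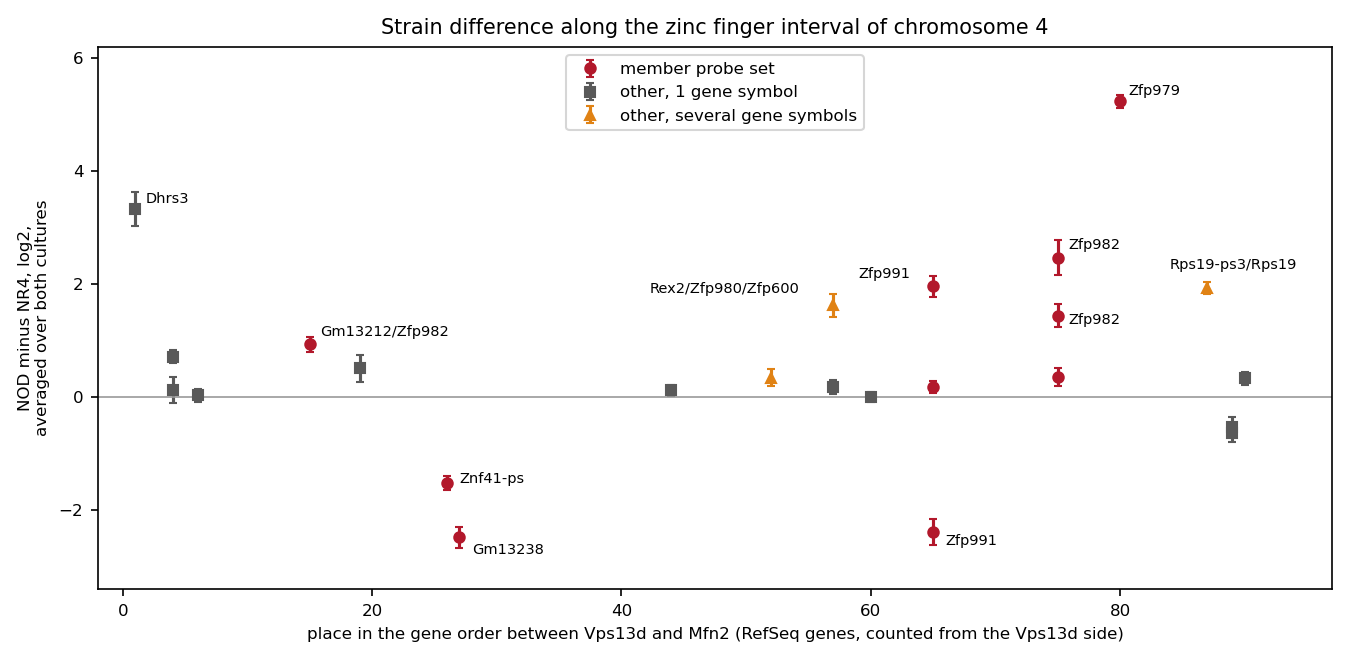
Averaged NOD minus NR4 differences on the log2 scale, with standard errors, are set against the place of the gene among the 90 RefSeq genes between Vps13d and Mfn2. A probe set that names several genes stands at the place of 1 of them. Members reach 5.24 (Zfp979) and -2.48 (Gm13238), and the 3 called neighbours lie between 1.63 and 3.33.

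Zinc finger genes elsewhere in the genome served for comparison. On other chromosomes 374 genes with symbols starting with Zfp, Znf, Zkscan, Zscan or Zbtb had 706 probe sets, with a median strain difference of 0.03. Of these, 0 were called between the strains in the averaged comparison by limma, against 0.118% of all probe sets. At that share few or none of 706 would be called, so nothing is read from the 0. At an unadjusted p under 0.05 there were 40 of 706, or 5.67%, against 4.14% of all probe sets. For the averaged response 7 of 706 were called (0.992%, against 1.01% of all). Among 35 genes of the KRAB corepressor machinery, read by 90 probe sets, 0 were called between the strains by limma. Nothing is read from this 0 either, against 0.118% of all. An unadjusted p under 0.05 was found between the strains in 7 of 90, or 7.78%, against 4.14% of all. The single call in the averaged response was Morc3, which acts in silencing of retroelements, at -0.39 (SE 0.07, limma adjusted p = 0.037), and it was lost without any 1 of the 11 arrays.

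The probe sets of other genes most like each member over the 11 arrays were named by Pearson's r, 3 per member. The 11 points share strain, lot and culture, so r is a description and carries no test. Zfp979 was most like Icam2, an adhesion molecule gene on chromosome 11 (r = 0.991), Eloa on chromosome 4 (0.974) and Padi2, which converts arginine to citrulline in proteins, on chromosome 4 (0.973). Within groups, Zfp979 and Icam2 deviated in opposite directions (r = -0.72). For Zfp982, 1436386_x_at was nearest to Cenps, Rnf125 and Eloa, 1456179_at to Stat4, Rps18 and Nudc, and 1459260_at to Mmd, Padi2 and Nmnat1.

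The Zfp991 probe sets split here too. The one lower in NOD, 1424784_at, was nearest to Srgap3 (r = 0.976), Cep85 and Ccdc28b, while 1451477_at was nearest to Padi2 (r = 0.974), Smc5 and Icam2. Gm13238 had the same 3 nearest genes as 1424784_at, and Znf41-ps was nearest to Nsd1, Khdrbs1 and Cep85. For the 8 member probe sets with separated strains, the 24 nearest probe sets, repeats included, named 16 different genes, 8 of them on chromosome 4. As probe sets, 14 of the 24 were of chromosome 4, against 6.03% of all with 1 symbol and a listed chromosome. For separated strains, r over these arrays largely restates the strain contrast on which the members were picked, and nothing is read from that share. For the 2 with overlapping strains 0 of 6 were on chromosome 4, from which nothing is read at a share of 6.03% over all. The contrast with the separated members is no result either. The 6 were Sppl3, Rpap3 and Thoc7 for 1439065_x_at, and Csnk2a2, Slc13a1 and Prc1 for 1440518_at.

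Cell make-up and RNA quality were read from the same centred values. The labelled cell type cannot be checked by level. None of the 47 probe sets of B, T, NK and cytotoxic, myeloid, plasma and red cell markers was called between the strains in the averaged comparison by limma. With 0.118% of all probe sets called there, nothing is read from 0 of 47. An unadjusted p under 0.05 was found in 12 of 47, or 25.5%, against 4.14% of all probe sets. Per-array means of the 8 B cell marker probe sets ran from -0.39 to -0.14 in anti-IgM NOD cells and from 0.12 to 0.19 in unstimulated NOD cells, against -0.50 to -0.22 and -0.05 to 0.39 in anti-IgM and unstimulated NR4 cells. In 3 of these 8, of Cd79b and Ms4a1, the signal averaged over strains was lower with anti-IgM, with differences of -0.46 to -0.62 (limma adjusted p 0.0287 to 0.0403). Plasma cell marker means were below 0 on all NOD arrays (-0.16 to -0.03) and above 0 on all NR4 arrays (0.04 to 0.16). NK and cytotoxic cell markers ran from -0.02 to 0.23 in NOD and from -0.64 to 0.12 in NR4. T cell markers ran from -0.17 to 0.09 in NOD and from -0.06 to 0.21 in NR4. The ranges of myeloid and red cell markers also overlapped between the strains. In bulk RNA, fewer cells of a type and less RNA per cell cannot be told apart. The 3′ minus 5′ difference of 4 control transcripts ran from 0.04 to 0.19 in anti-IgM NOD cells and from -0.01 to 0.00 in unstimulated NOD cells. In NR4 cells it ran from -0.05 to 0.29 with anti-IgM and from -0.15 to 0.20 unstimulated. The part of these shifts in the members' strain differences and responses was not tested. NOD and NR4 carry different alleles in the exchanged segment, and on this array a different amount of transcript and a different sequence under the probes cannot be told apart.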

How the data were processed

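RNA of 11 splenic B cell cultures was amplified in 1 cycle, labelled with biotin and hybridised to Affymetrix mouse genome arrays, per the labels. The authors deposited RMA values, as the submitters' processing notes name the method, and these were taken as log2 signals. All 45101 probe sets have a median of exactly 0 over the arrays, a centring that the labels do not mention. No software version or genome build is named in the sources used here. No depth exists for arrays, and their number limits the precision.

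After 64 control probe sets were left out, 1 linear model with 4 group means (7 residual degrees of freedom) was fitted to 45037 probe sets with limma 3.58.1 in R 4.3.3. Empirical Bayes moderation and Benjamini-Hochberg adjustment (two-sided, threshold 0.05) followed within each of 7 comparisons. Steps were tested on simulated data. Names came from the platform annotation (34945 probe sets with 1 symbol, 932 with several, 9160 with none listed), and gene order from RefSeq (GRCm38.p6), where zinc finger neighbours were found by symbol only. Replicates are separate lots of pooled animals.

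All members, called neighbours (otherwise the 3 largest differences and 3 largest responses) and the 3 probe sets most like each member were named. Of the other lists, up to 4 called genes each way could be named, and zinc finger genes of other chromosomes were only counted. The members and lists were chosen with earlier results of these data known. Same-numbered arrays were checked for pairing by the correlation of deviations from group means. It was 0.6, 0.359 and 0.562 between the strains when unstimulated and 0.319, 0.18 and 0.484 between the cultures of NR4, all above 0.1, so these were treated as paired in an alternative fit with the number as a block. NOD with anti-IgM gave 2 pairs each way (0.631 and 0.156, and 0.349 and -0.147 against NR4), too few to settle it. NOD anti-IgM replicate 2 was closer to replicate 3 of unstimulated NOD (0.49) and of anti-IgM NR4 (0.515) than to either replicate 2. With 2 arrays in a group, deviations from its mean mirror each other, so these values do not settle the lot of that array. The block kept the given numbers, so that array may be placed in the wrong lot there. Other alternatives were removal of each array, quantile normalization, robust moderation, only the compared groups in the fit, only probe sets with 1 symbol, and 1 value per gene.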

Additional observations from a re-analysis of the deposited data

How the results depend on the processing

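The averaged fold of Zfp979 was 2.76 times smaller under quantile normalization, with a log2 difference of 3.78 instead of 5.24. Members called for the anti-IgM response or the interaction numbered 0 under every alternative run. Between the strains, where the choice of members fixed the calls, fitting only the compared groups called 3 members instead of 5 when unstimulated and 1 instead of 3 with anti-IgM. Removal of each array gave 1 to 6 members unstimulated, 1 to 3 with anti-IgM and 5 to 6 averaged. Zfp991 1424784_at turned to 0.145 when its probe sets were merged, an alternative chosen after seeing the data, since the merged value is the median of probe sets of opposite sign. The cause of the other changes was not tested.

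With the replicate block, the probe sets called were 222 instead of 75 for the NR4 response and 797 instead of 456 for the averaged response, and other probe sets of the interval called with anti-IgM were 3 instead of 1. The block added or removed no call of a member in the unstimulated or averaged strain comparison, and left 2 instead of 3 with anti-IgM. The lot of NOD anti-IgM replicate 2 is uncertain in this block, and another placing was not tested.

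Of all probe sets, only the compared groups in the fit left 17 of 26 strain calls unstimulated, 9 of 17 with anti-IgM, 0 of 20 for the NOD response and 0 of 75 for the NR4 response, as counts. Quantile normalization gave 7 and 8 for these responses. With 1 value per gene there were 11 strain calls unstimulated, 9 with anti-IgM, 22 instead of 53 averaged, and 283 for the averaged response. Only probe sets with 1 symbol gave 10 strain calls with anti-IgM. Removal of each array gave 14 to 24 strain calls unstimulated, 8 to 18 with anti-IgM, 26 to 40 averaged, 0 to 10 for the NOD response, 6 to 57 for the NR4 response and 69 to 389 averaged.

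For the other probe sets of the interval, unstimulated strain calls were 1 instead of 2 with 1-symbol probe sets, with only the compared groups and with 1 value per gene. With 1-symbol probe sets they were 0 instead of 1 with anti-IgM, and averaged calls were 1 instead of 3 there and with 1 value per gene. The called probe sets 1438237_at and 1460442_at name several symbols and are left out of both settings. Their calls were thus dropped by the filter itself and not by a new estimate. Removal of each array gave 1 to 2 unstimulated, 0 to 2 with anti-IgM and 2 to 3 averaged.

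Centring leaves no dim-probe filter and no level to set one by, and background correction and a slide block were not run because the scanner files and scan dates were not used here. Only 2 to 3 arrays per group bound every statement on the response.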
